A study of Drosophila melanogaster with 16 samples.

Results

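This account follows RNA levels from cellularization to gastrulation in Drosophila melanogaster embryos homozygous for the Jasper allele Su113. It sets 2 libraries of stages 7 to 8 (St7-8) against 2 libraries of nuclear cycle 14 (NC14, which is stage 5). The 12398 of 17753 genes that passed a filter on low counts were tested. These 4 of the 16 libraries of the study were picked by their labels, with earlier results of these data known. The labelled genotype of all 4 is wm4h;JasperSu113/JasperSu113. The other libraries, used here only to show where Su113 differs, are pairs at each stage of the other Jasper allele (wm4h;JasperSu140/JasperSu140, called Su140), of homozygotes for the allele 06 of Su(var)3-9 in the same background (called Su(var)3-9) and of the control (wm4h;+/+, called wm4h). All 4 genotypes thus carry wm4h, a rearranged X chromosome on which the white gene lies beside heterochromatin. Each library came from total RNA of a pool of 50 hand-sorted embryos of flies that laid for 1 h, aged for a further 2 h at 25 °C. The collection text is the same for every sample and names NC14 only, so how St7-8 embryos were timed, and the genotype of the mothers, are not given in the sources used here. No label says that the replicates were separate collections, so p-values measure the spread between these pools, which may be technical in part.

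The fly embryo starts on RNA that the mother loaded into the egg. At nuclear cycle 14 the nuclei are walled off into cells, the zygotic genome is switched on broadly, and much maternal RNA is cleared. Stages 7 and 8 follow, when mesoderm and gut precursors fold inward and the germband extends along the body axis. Genes for cellularization and for the first patterning steps are transcribed in short pulses at cycle 14, while segment polarity, homeotic and tissue-specific genes take over later. JASPer is a PWWP-domain protein that binds the kinase JIL-1 and recruits it to chromatin of active genes. The values below are levels in CPM, the share of a gene in the counts of its library after TMM scaling, in parts per 1e6, and log2 fold changes of St7-8 over NC14, a difference. A gene is said to have risen or fallen where its adjusted p (edgeR quasi-likelihood test, Benjamini-Hochberg adjustment over 12398 genes tested) was under 0.05.

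The 4 Su113 libraries held 43466130 to 89559757 counts, with the smallest at St7-8 replicate 2. A floor of 3 counts lies between 0.0299 and 0.0568 CPM in them, which covers counting error only. Replicates were farther apart at St7-8 than at NC14 (SD of the log2 CPM difference over genes 1.34 against 0.57, Spearman rho 0.953 against 0.993). The stage 5 markers nullo, bnk, slam, CG14427 and Sry-alpha summed to 2076 and 1178 CPM at St7-8, against 6132 and 4895 CPM at NC14. Of these Sry-alpha had 0 counts in all 16 libraries of the study, so it says nothing about Su113. The St7-8 markers wg, en, hh, gsb, wntD and Mes2 summed to 224 and 133 CPM at St7-8, against 122 and 132 CPM at NC14. The sum was thus higher in St7-8 replicate 1 and level with NC14 in replicate 2, where single markers differed. There Mes2 was at 74.8 CPM, against 35.8 and 41.4 CPM at NC14, and en was slightly higher. Lower were wg (31.5 CPM, against 56.1 and 61.2 CPM at NC14) and wntD (7.31 CPM, against 12.4 and 11.9 CPM). The markers hh and gsb were near their NC14 levels. The 8 markers chosen for older embryos summed to 383 and 1007 CPM at St7-8, against 189 and 203 CPM at NC14, but nearly all of the NC14 value was the neuronal gene elav (187 and 199 CPM). Without elav, a choice made after seeing the data, the other 7 summed to 219.9 and 930.5 CPM at St7-8, against 1.96 and 3.74 CPM at NC14. Markers of ovary and adult tissue summed to 1.47 and 0.795 CPM at St7-8, against 1.04 and 1.05 CPM at NC14, and 4 of these 9 genes were at 0 in every Su113 library. The St7-8 label was thus matched by lower stage 5 markers in both libraries, and by higher St7-8 markers in replicate 1.

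In all, 2699 of the 12398 genes changed between the stages in Su113 (21.8%). At St7-8, 1500 were higher (12.1%) and 1199 were lower (9.67%), and 5000 had an unadjusted p under 0.05. All counts of list members below stand beside the 12.1% and 9.67% of all genes, and the lists were chosen with earlier results of these data known. The rises were large and the falls were small: the median log2 fold change was 2.17 among genes that rose and -0.68 among genes that fell, 805 genes rose and 40 fell by 4-fold or more. The genes that rose came from lower levels, with a median of 9.50 CPM over the 4 libraries, against 140 CPM for the genes that fell and 8.70 CPM for all genes tested. St7-8 replicate 2 was the more extreme library for 1269 of the risen and 1071 of the fallen genes. Other scaling shifted the balance. With DESeq2 size factors the median change of all genes moved to 0.13, against -0.03 with TMM. The calls became 1648 higher and 636 lower. With the 4 Su113 libraries fitted alone, 440 genes were called, 413 higher and 27 lower. Of the lists below, that fit left no lower gap, head gap, pair-rule, mesectoderm or neurectoderm gene. It left 1 lower cellularization gene and 2 lower BMP genes, and 3 higher egg activation and 3 higher glycolysis genes. The count of 2699 also rests on single libraries. It was 3469 without St7-8 replicate 1, 520 without St7-8 replicate 2, 6 without NC14 replicate 1 and 56 without NC14 replicate 2, although 2697 of the 2699 genes kept their sign in all 4 of these fits. The 6 genes called in all of them were exu, Gapdh2, GstD1, D19A, CG6638 and CG3902, all higher at St7-8.

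**Figure D1:**
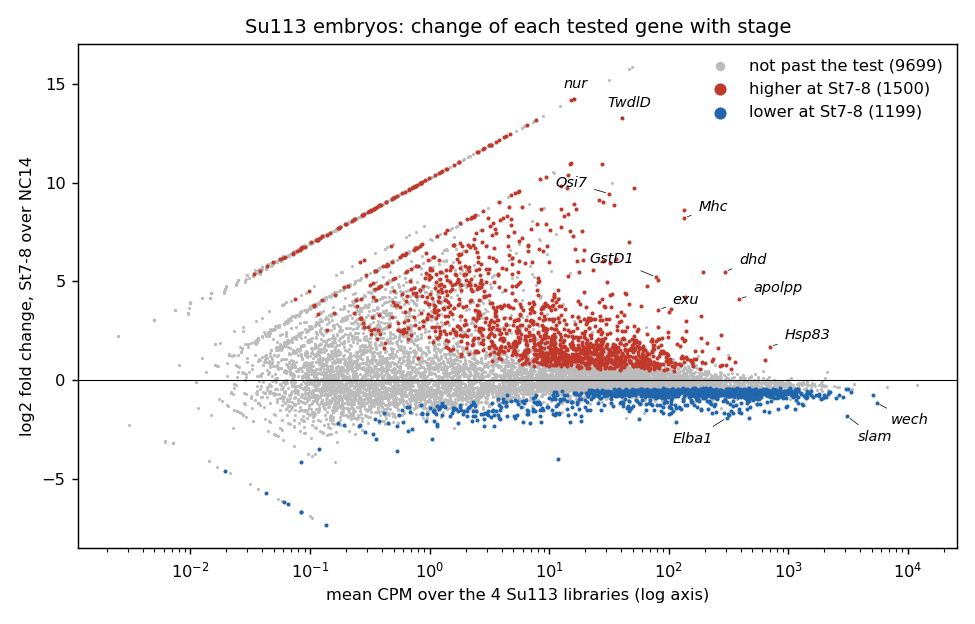
Each point is 1 of the 12398 genes tested, with its mean level over the 4 Su113 libraries (CPM, log axis) on the x axis and its log2 fold change, St7-8 over NC14, on the y axis. The 1500 risen genes (red) spread upward at all levels, while the 1199 fallen genes (blue) form a shallow band at high levels.

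The genes of the cellularization list were lower at St7-8. Of 9 tested members of the list, 4 fell (44.4%, beside 9.67% of all genes) and none rose, with a median log2 fold change of -1.08. The gene slam, whose product builds the furrows that separate the nuclei (chromosome 2L, 6372388 to 6377284, dm6), had 1758 and 955 CPM at St7-8, against 5448 and 4267 CPM at NC14 (log2 fold change -1.84 ± 0.44 SE, adjusted p = 0.0177). The gene halo, which directs lipid droplet transport during cellularization, had 258 and 135 CPM at St7-8, against 796 and 681 CPM at NC14 (-1.91 ± 0.47, adjusted p = 0.0192). In both genes St7-8 replicate 2 was the lowest library. Their stages did not overlap, but the rule that named them required this, and it held for all 1199 fallen genes. CG14427 and Septin1, a septin of the furrow, also fell, by 1.08 and 0.50 on the log2 scale. The furrow gene nullo was at 32.5 and 39.2 CPM at St7-8, against 70.7 and 91.2 CPM at NC14, and bnk (bottleneck, which times the closing of the furrow) at 170 and 128 CPM, against 421 and 369 CPM at NC14. Neither passed the test (adjusted p = 0.123 and 0.0531). Without St7-8 replicate 1 the list had 5 lower members, and without any 1 of the other libraries it had none.

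The genes with the lowest log2 fold changes and the greatest losses of level included others besides these. Elba1 and Elba3, both on chromosome 2L, which encode parts of an insulator-binding complex of the early embryo, fell by 1.92 and 1.69 on the log2 scale. Elba1 had 164 and 93.4 CPM at St7-8, against 522 and 451 CPM at NC14. Bro, a partner of Runt-domain proteins, had 27.3 and 18.7 CPM at St7-8, against 89.9 and 92.0 CPM at NC14 (-1.98 ± 0.41, adjusted p = 0.0105), the lowest log2 fold change that the naming rule returned. For dunk, which regulates myosin during cellularization, the values were 123 and 94.8 CPM at St7-8, against 380 and 321 CPM at NC14. The greatest loss of level was that of wech, which links integrins to the cytoskeleton, with 4192 and 2582 CPM at St7-8, against 7873 and 7276 CPM at NC14 (-1.16 ± 0.19, adjusted p = 0.00473). Among other abundant transcripts, those of kis (a chromatin remodeller), spen (an RNA-binding repressor), kuk (a nuclear envelope protein of cellularizing embryos) and lola (a transcription factor) fell by 0.75, 0.85, 0.91 and 0.63. HisCl1, Cyp312a1, tomboy40, Mco1 and Nepl4 completed the rule's fallen genes, with log2 fold changes of -1.91 to -1.70 at 2.16 to 7.64 CPM on average at St7-8, against 8.16 to 25.3 CPM at NC14.

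The gap genes, the first zygotic regulators of the body axis, were lower as a group. Of 8, 5 fell (kni, Kr, tll, hkb and gt), which is 62.5%, beside 9.67% of all genes, and the median was -1.28. In all 8 both St7-8 libraries lay below both NC14 libraries, an arrangement seen in 38.0% of all genes. Krüppel (Kr), which sets the middle of the embryo, had 293 and 122 CPM at St7-8, against 630 and 519 CPM at NC14 (-1.47 ± 0.31, adjusted p = 0.0120). The terminal gap gene tll had 69.1 and 39.1 CPM at St7-8, against 181 and 146 CPM at NC14 (-1.60 ± 0.35, adjusted p = 0.0140). The anterior regulator hb (-0.75, adjusted p = 0.0580) and the posterior gene cad (-0.41, adjusted p = 0.335) did not pass. Of the 8 head gap and related genes, oc, btd, croc, ems and D fell (-1.38 to -1.17), slp1 and slp2 did not pass, and cnc was at 134 and 202 CPM at St7-8, against 109 and 129 CPM at NC14, without passing the test (0.49, adjusted p = 0.104). Both lists lost most calls with a library: gap genes had 6 lower members without St7-8 replicate 1, 1 without St7-8 replicate 2 and none without either NC14 library, and head gap genes had 7 without St7-8 replicate 1 and none without any 1 of the other libraries.

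**Figure D2:**
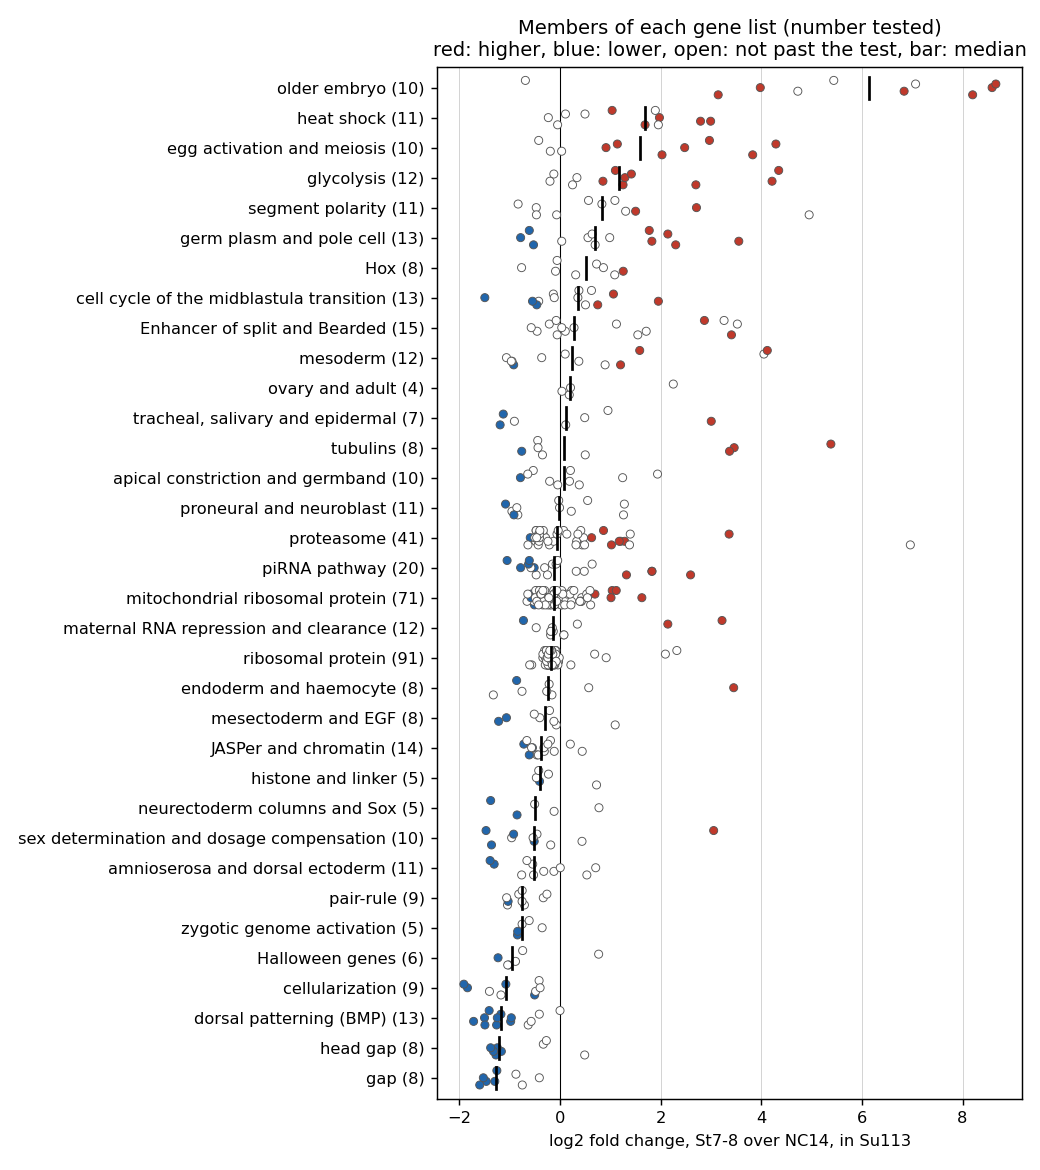
Each row is a gene list, with the number of its members tested, and each point is 1 member placed at its log2 fold change in Su113, St7-8 over NC14. Red members rose, blue members fell and open members did not pass the test, and the bar is the median, which runs from 6.14 for older embryo genes at the top to -1.28 for gap genes at the bottom.

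Dorsal patterning by BMP signalling showed the highest count of fallen members among the patterning lists, 9 of 13 tested (69.2%, beside 9.67% of all genes). The median was -1.18 and no member rose. The ligands dpp and scw fell together: dpp had 92.5 and 40.0 CPM at St7-8, against 168 and 150 CPM at NC14 (-1.26 ± 0.28, adjusted p = 0.0143), and scw had 47.1 and 46.3 CPM at St7-8, against 155 and 152 CPM at NC14 (-1.72 ± 0.42, adjusted p = 0.0199). The replicates of scw were nearly equal at each stage. Extracellular regulators fell as well, namely sog, which binds the ligands (-1.17), tsg, its partner (-1.49), the protease tld, which cuts Sog (-1.50), and cv-2 (-0.97). So did the nuclear repressor brk, the target zen and shn, the co-factor of the pathway's Smad proteins, which had 433 and 258 CPM at St7-8, against 864 and 776 CPM at NC14 (-1.25 ± 0.21, adjusted p = 0.00467). The receptors tkv, sax and put and the Smad gene Mad did not pass the test (-0.63 to -0.00). Of 11 genes of amnioserosa and dorsal ectoderm, the targets of this signal, egr and net fell and none rose. The 9 BMP calls were 10 without St7-8 replicate 1, 2 without St7-8 replicate 2 and none without either NC14 library, and the 2 of the dorsal ectoderm were 4, 1 and none.

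Pair-rule, segment polarity and homeotic genes, which refine the body plan in that order, mostly did not pass. Of 9 pair-rule genes only ftz fell (11.1%, near the 9.67% of all genes). It had 158 and 70.0 CPM at St7-8, against 234 and 232 CPM at NC14 (-1.03 ± 0.33, adjusted p = 0.0452). With DESeq2 size factors it was not called, and without St7-8 replicate 1 there were 8 lower members in this list. Of 11 segment polarity genes, the paired T-box genes mid and H15 rose (18.2%, beside 12.1% of all genes). The gene mid had 36.3 and 13.0 CPM at St7-8, against 7.65 and 9.81 CPM at NC14 (1.5 ± 0.48, adjusted p = 0.0456). The stripe gene en had 24.4 and 7.70 CPM at St7-8, against 6.52 and 6.53 CPM at NC14, so replicate 1 was high and replicate 2 near NC14 (adjusted p = 0.0605). All 11 genes of this list and all 8 Hox genes were higher in St7-8 replicate 1 than in replicate 2. Of the Hox genes abd-A rose (12.5%, near the 12.1% of all genes). It had 38.2 and 20.7 CPM at St7-8, against 12.0 and 12.7 CPM at NC14 (1.26 ± 0.34, adjusted p = 0.0278). Ubx had 22.6 and 10.7 CPM at St7-8, against 12.7 and 14.2 CPM at NC14 (adjusted p = 0.603). Without St7-8 replicate 1 no segment polarity or Hox gene was higher and 2 segment polarity genes were lower, and without either NC14 library none was called in these lists.

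In the mesoderm, Mef2, the regulator of muscle differentiation, had 70.2 and 72.5 CPM at St7-8, against 21.3 and 26.3 CPM at NC14 (1.58 ± 0.31, adjusted p = 0.00856), and zfh1 had 112 and 93.8 CPM at St7-8, against 40.5 and 49.1 CPM at NC14 (1.20 ± 0.36, adjusted p = 0.0367). The visceral muscle gene bin also rose, with 0.548 and 0.454 CPM at St7-8, against 0 and 0.0569 CPM at NC14. The founding regulator twi fell (196 and 82.6 CPM at St7-8, against 276 and 252 CPM at NC14, adjusted p = 0.0441), a call lost with DESeq2 size factors, and sna did not pass (-0.95, adjusted p = 0.0616). GATAe, an endoderm regulator, had 5.03 and 4.49 CPM at St7-8, against 0.440 and 0.427 CPM at NC14 (3.45 ± 0.70, adjusted p = 0.00988), while byn of the hindgut fell by 0.86. The POU gene vvl, of tracheal and neural precursors, had 25.0 and 13.3 CPM at St7-8, against 2.03 and 2.75 CPM at NC14 (3.01 ± 0.63, adjusted p = 0.0115). The epidermal regulators grh and rib fell (-1.19 and -1.13). In the neurectoderm and its neuroblasts, vnd, D, dpn and mira fell (-1.38 to -0.85) and none of the 5 and 11 members tested in these lists rose. Of 8 genes of the mesectoderm and EGF pathway the receptor Egfr and its activating protease gene rho fell (-1.07 and -1.22), and sim was at 18.9 and 6.80 CPM at St7-8, against 5.99 and 6.08 CPM at NC14. Of 15 Enhancer of split and Bearded genes, targets of Notch, E(spl)mbeta-HLH and E(spl)m6-BFM rose (13.3%, near the 12.1% of all genes). They had 2.44 and 1.58 CPM in St7-8 replicate 1 and 0.644 and 0.341 CPM in replicate 2. Of 10 genes of apical constriction and germband extension the G protein-coupled receptor gene mthl1 fell (10.0%, near the 9.67% of all genes) and none rose. Without either NC14 library no member of these lists was called, and without St7-8 replicate 2 none of their falls was. Without St7-8 replicate 1 the falls numbered 4 in each of the mesoderm, endoderm, proneural and mesectoderm lists, 3 in each of the neurectoderm, tracheal and apical constriction lists, and 2 among the Enhancer of split genes, of which none was then higher. Without St7-8 replicate 2, 3 Enhancer of split genes were higher. The 3 mesoderm risers were 1 without St7-8 replicate 1 and 1 without St7-8 replicate 2, and the members of the endoderm and tracheal lists that were higher numbered 1 in each of these fits.

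Many transcripts that mothers load into the egg or the germ plasm were higher at St7-8. Of 10 genes of egg activation and meiosis, 7 rose (cort, fs(1)Ya, png, mtrm, gnu, endos and gwl), 70.0% beside 12.1% of all genes. None fell, and the median was 1.58. The meiotic activator of the anaphase-promoting complex, cort, had 12.1 and 18.8 CPM at St7-8, against 0.710 and 0.868 CPM at NC14 (4.29 ± 0.49, adjusted p = 0.00165). fs(1)Ya, a nuclear envelope protein of the egg, had 46.2 and 95.5 CPM at St7-8, against 8.23 and 9.85 CPM at NC14 (2.97 ± 0.50, adjusted p = 0.00473), and mtrm, the meiotic inhibitor of Polo kinase, 46.3 and 128 CPM, against 6.45 and 5.78 CPM at NC14 (3.83 ± 0.74, adjusted p = 0.00812). St7-8 replicate 2 was above replicate 1 in all 10 genes. The kinase complex partner plu, the phosphatase twe and the calcineurin regulator sra did not pass (-0.42 to 0.03). The list's 7 calls were 7 without St7-8 replicate 1, 4 without St7-8 replicate 2, none without NC14 replicate 1 and 1 without NC14 replicate 2.

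Of 13 germ plasm and pole cell genes, exu, nanos, vas, pgc and osk rose and aub, AGO3 and stau fell. That is 38.5% and 23.1%, beside 12.1% and 9.67% of all genes. The gene exu, needed to localize bicoid RNA (chromosome 2R, 20667427 to 20671083, dm6), had 106 and 196 CPM at St7-8, against 12.5 and 13.3 CPM at NC14 (3.55 ± 0.34, adjusted p = 0.000679). The posterior determinant nanos had 189 and 416 CPM at St7-8, against 66.2 and 71.0 CPM at NC14 (2.14 ± 0.35, adjusted p = 0.00449), and osk, which builds the germ plasm, 286 and 631 CPM, against 68.7 and 118 CPM at NC14 (2.30 ± 0.63, adjusted p = 0.0277). In all 3 St7-8 replicate 2 was the highest library. Their stages did not overlap, which held for 1496 of the 1500 risen genes. By contrast bcd itself was at 85.7 and 131 CPM at St7-8, against 81.9 and 130 CPM at NC14 (0.03, adjusted p = 0.972). The falls of aub, AGO3 and stau were small (-0.78, -0.61 and -0.53), and 1 of them was called with DESeq2 size factors. The 5 risers were 6 without St7-8 replicate 1, 2 without St7-8 replicate 2 and 1, exu, without either NC14 library.

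Of 12 genes of maternal RNA repression and clearance, bru1 and nanos rose and Not1 fell. The risers of this list numbered 3 without St7-8 replicate 1 and 2 without St7-8 replicate 2, no fall was called without St7-8 replicate 2, and no member was called without either NC14 library. The translational repressor bru1, which binds osk RNA, had 186 and 482 CPM at St7-8, against 32.7 and 39.0 CPM at NC14 (3.22 ± 0.58, adjusted p = 0.00618). Not1, the scaffold of the deadenylase that shortens RNA tails, fell by 0.73 on the log2 scale, and smg, which recruits it to maternal RNAs, did not pass (0.07, adjusted p = 0.904). The piRNA pathway, which silences transposons in the germ line, was divided. Of 20 genes, shu, del, vas and armi rose (1.32 to 2.59) and nxf2, aub, Panx, AGO3 and tej fell (-1.05 to -0.51). That is 20.0% and 25.0%, beside 12.1% and 9.67% of all genes. With DESeq2 size factors 4 were higher and 2 lower, without St7-8 replicate 1 the counts were 5 and 3, without St7-8 replicate 2 they were 2 and 0, and without either NC14 library no member was called. The thioredoxin gene dhd of the egg had 309 and 842 CPM at St7-8, against 12.1 and 13.7 CPM at NC14 (5.48 ± 0.67, adjusted p = 0.00199), and yl, the yolk receptor of the oocyte, 635 and 1078 CPM, against 378 and 474 CPM at NC14 (1.01 ± 0.30, adjusted p = 0.0389).

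**Figure D3:**
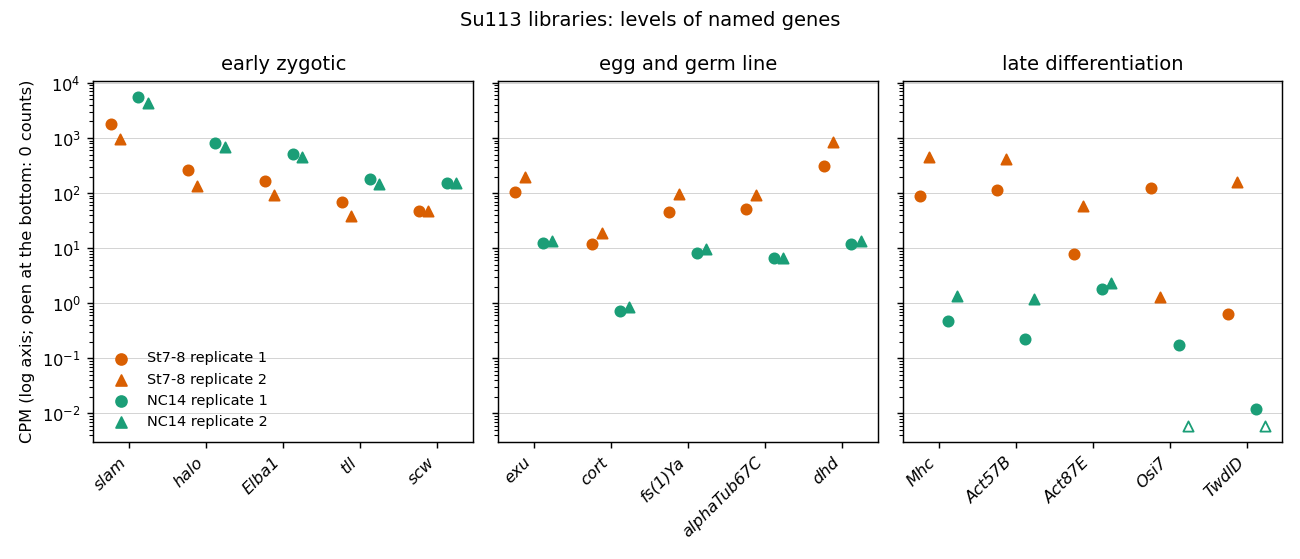
Levels of 15 named genes in the 4 Su113 libraries (CPM, log axis), with St7-8 libraries (orange) left of NC14 libraries (green), circles for replicate 1 and triangles for replicate 2. An open marker at the bottom is a count of 0. Early zygotic genes are lower and egg genes higher at St7-8 in both replicates, while among late genes Osi7 is high in St7-8 replicate 1 and TwdlD in replicate 2.

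Tubulin, heat shock and glycolysis lists also held genes that rose. The egg isotypes alphaTub67C and gammaTub37C rose: alphaTub67C had 51.6 and 93.7 CPM at St7-8, against 6.59 CPM in both NC14 libraries (3.46 ± 0.44, adjusted p = 0.00212), and gammaTub37C had 27.4 and 55.5 CPM, against 4.38 and 3.64 CPM at NC14. The widely used alphaTub84B and betaTub56D did not pass (-0.35 and -0.44), alphaTub84D fell (-0.76), and alphaTub85E of muscle precursors rose to 3.90 and 3.65 CPM at St7-8, against 0.147 and 0.0285 CPM at NC14. Of 11 tested heat shock genes 5 rose (45.45%, beside 12.1% of all genes). The chaperone gene Hsp83 had the greatest gain in level of the genes the rule returned, with 843 and 1304 CPM at St7-8, against 329 and 336 CPM at NC14 (1.69 ± 0.21, adjusted p = 0.00199). The small heat shock genes Hsp26 and Hsp27 and the co-chaperone gene DnaJ-1 rose too (2.99, 1.98 and 1.04). The stress-inducible Hsp70Ab, which shares reads with near-identical copies and so is uncertain, rose with 17.7 CPM in St7-8 replicate 1 and 2.91 CPM in replicate 2, against 1.22 and 1.75 CPM at NC14, and the factor Hsf did not pass (-0.05, adjusted p = 0.816).

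Of 12 glycolysis genes 8 rose (66.7%, beside 12.1% of all genes) and none fell, with a median of 1.18. Gapdh2 had 155 and 362 CPM at St7-8, against 14.6 and 13.3 CPM at NC14 (4.21 ± 0.40, adjusted p = 0.000679), while Gapdh1 had 91.4 and 185 CPM, against 54.2 and 61.6 CPM at NC14 (1.25 ± 0.39, adjusted p = 0.0418). The isomerase gene Tpi had 51.2 and 118 CPM at St7-8, against 4.04 and 4.27 CPM at NC14 (4.35 ± 0.47, adjusted p = 0.00127). PyK, Pglym78, Pgk, Eno and Pgi rose by 0.85 to 2.70, in both St7-8 libraries, and Hex-A, Pfk, Ald1 and Ldh, at the entry, the control step, the middle and the end of the pathway, did not pass (-0.20 to 0.34). The 8 calls were 7 without St7-8 replicate 1, 4 without St7-8 replicate 2, 1 without NC14 replicate 1 and 2 without NC14 replicate 2, and the 5 heat shock calls were 4, 6, none and 1. Tubulin risers were 3, 2, none and 1 of the list in the same fits. Beside these groups stand markers of older embryos, which were higher in the same St7-8 libraries and highest in replicate 2 (219.9 and 930.5 CPM at St7-8, against 1.96 and 3.74 CPM at NC14, without elav). Their part in the result was not tested. Fewer cells of a type and less RNA per cell cannot be told apart in pooled embryos.

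Muscle and other differentiation genes were higher in the St7-8 libraries and uneven between them. Of the 10 tested genes of the older embryo list, 6 rose (Mhc, Act57B, Tm2, Mlp60A, Act87E and nSyb) and none fell. The median was 6.14, beside 6.34 in Su140. Muscle myosin Mhc (chromosome 2L, 16766566 to 16788766, dm6) had 86.8 and 447 CPM at St7-8, against 0.477 and 1.35 CPM at NC14 (8.20 ± 2.41, adjusted p = 0.0357). The muscle actin gene Act57B had 114.9 and 417 CPM at St7-8, against 0.220 and 1.18 CPM at NC14 (8.59 ± 2.24, adjusted p = 0.0239). The other muscle genes were also highest in replicate 2, such as Act87E with 7.86 and 57.9 CPM at St7-8, against 1.79 and 2.38 CPM at NC14. The panneural gene elav, which is already on at NC14, had 163 and 76.2 CPM at St7-8, against 187 and 199 CPM at NC14, and did not pass. The 6 calls were 8 higher and 1 lower without St7-8 replicate 1 and none without any 1 of the other libraries, limma-voom called 1, and DESeq2 called 9.

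Cuticle and barrier genes split the St7-8 replicates. TwdlD, a cuticle protein gene, had 0.638 and 162 CPM at St7-8, against 0.0122 and 0 CPM at NC14, 1 count in all, a ratio of 8550 with a 95% counting interval of 1530 to 338000. Cpr62Bc, another, had 0.189 and 26.1 CPM at St7-8 and 0 counts at NC14. The mean of its St7-8 libraries was at least 331-fold above a floor of 3 counts per NC14 library. For Cpr51A, with 1.33 and 60.2 CPM at St7-8 and 0 counts at NC14, that bound is 775-fold. These figures pool or average unequal St7-8 libraries and rest on replicate 2. TwdlD, Cpr62Bc and Cpr51A had 8548, 1378 and 3182 counts there, against 64, 19 and 133 in replicate 1. They cover counting error only and are not bounds for replicate 1. Osi7, a gene of the Osiris cluster, behaved the other way, with 126 and 1.32 CPM at St7-8, against 0.171 and 0 CPM at NC14. The families were added after their values were seen and have no test. Summed over 24 genes, Twdl RNA came to 5.91 and 691 CPM at St7-8, against 1.52 and 1.25 CPM at NC14, and over 23 genes Osi RNA came to 303 and 31.2 CPM, against 1.98 and 1.27 CPM at NC14. The 70 Cpr genes summed to 18.3 and 376 CPM at St7-8, against 12.6 and 13.4 CPM at NC14. Cuticle RNA was thus high in replicate 2 and Osi RNA higher in replicate 1, so the St7-8 libraries differ in which late RNAs they hold. Such RNA was not particular to Su113. In the St7-8 replicates 1 and 2 of Su140, Twdl RNA came to 1.47 and 248 CPM and Osi RNA to 2.355 and 1040 CPM. TwdlB, Ccp84Ag, prc, Vajk4 and Lcp65Ag2, which has a near-identical neighbour and so is uncertain, also rose, with 0.179 to 1.92 CPM in St7-8 replicate 1 and 31.6 to 60.2 CPM in replicate 2, against 0 to 0.0285 CPM at NC14.

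The gene nur (chromosome 2L, 13736138 to 13737030, dm6) had 34.6 and 30.2 CPM at St7-8 and 0 counts in both NC14 libraries, at least 816-fold higher, and was nearly even between the St7-8 replicates. The lipoprotein gene apolpp, the precursor of the main lipid carrier of the blood, had 748 and 708 CPM at St7-8, against 39.8 and 44.8 CPM at NC14 (4.11 ± 0.54, adjusted p = 0.00244), and VAChT, the acetylcholine transporter of neurons, had 8.62 and 13.9 CPM, against 0.0245 and 0 CPM at NC14, 2 counts in all, a ratio of 793 (counting interval 219 to 6550). The titin-like gene bt lies on chromosome 4 like apolpp and had 134 and 630 CPM at St7-8, against 7.27 and 9.75 CPM at NC14, with replicate 2 far the higher.

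**Figure D4:**
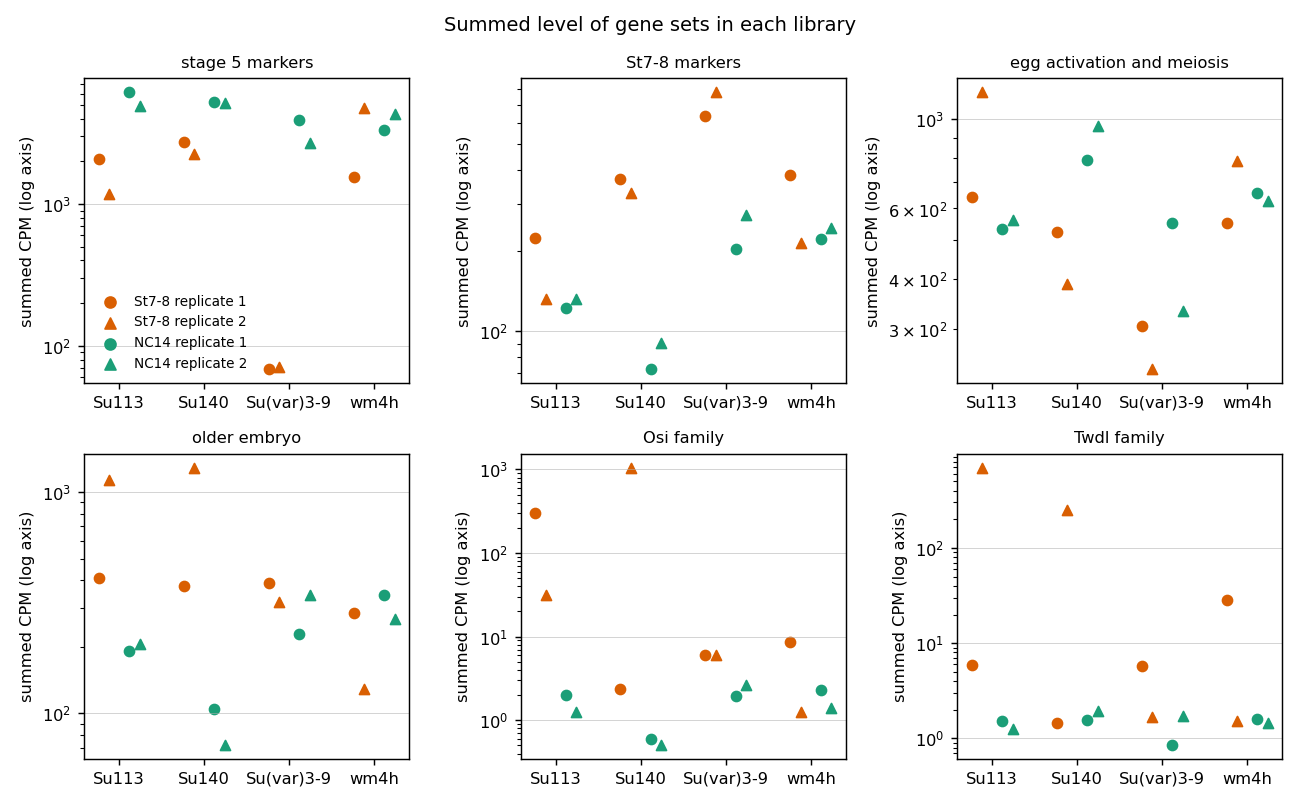
Summed CPM (log axis) of 6 gene sets (the older embryo set with elav) in all 16 libraries, by genotype, with St7-8 (orange) left of NC14 (green), circles for replicate 1 and triangles for replicate 2. In Su113 the egg activation set is higher at St7-8 (642 and 1168 CPM) than at NC14 (534 and 561 CPM), and the Osi and Twdl sets are each high in a different St7-8 replicate.

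Among dosage compensation and sex determination genes, which act on the X chromosome, 4 of 10 fell (Sxl, msl-2, lncRNA:roX1 and mle) and lncRNA:roX2 rose. Sxl, the female switch gene, had 558 and 508 CPM at St7-8, against 1507 and 1235 CPM at NC14 (-1.36 ± 0.20, adjusted p = 0.00326), and msl-2 had 158 and 69.1 CPM, against 336 and 294 CPM at NC14 (-1.47 ± 0.33, adjusted p = 0.0142). The 2 noncoding RNAs of the complex moved in opposite directions. lncRNA:roX2 had 16 and 15.6 CPM at St7-8, against 1.74 and 2.06 CPM at NC14 (3.05 ± 0.63, adjusted p = 0.0103), and lncRNA:roX1 had 1677 and 1001 CPM, against 2706 and 2371 CPM at NC14 (-0.92 ± 0.24, adjusted p = 0.0242). The zygotic activators zld and Trl fell (-0.85 and -0.84), and Clamp, opa and Stat92E did not pass. In the cell cycle list, trbl, which blocks mitosis in the invaginating mesoderm, had 294 and 179 CPM at St7-8, against 706 and 628 CPM at NC14 (-1.49 ± 0.26, adjusted p = 0.00553), and CycE and CycB3 fell slightly (-0.55 and -0.46). The cyclin-dependent kinase inhibitor dap (1.95), the checkpoint kinase lok (1.06) and the phosphatase stg (0.75) rose. The 4 lower members of the dosage compensation list were 5 without St7-8 replicate 1, 1 without St7-8 replicate 2, none without NC14 replicate 1 and 1 without NC14 replicate 2. The cell cycle list had 4 higher and 3 lower members without St7-8 replicate 1, 1 lower without St7-8 replicate 2 and none without either NC14 library, and the 2 activators were 3 without St7-8 replicate 1 and none without any 1 of the others.

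The mutated gene and its partner kinase did not pass the test. Jasper RNA was at 128 and 98.9 CPM at St7-8, against 161 and 151 CPM at NC14 (-0.46 ± 0.18, adjusted p = 0.0758), below the NC14 libraries in both replicates but not past the test. JIL-1, the kinase it binds, had 232 and 264 CPM at St7-8, against 271 and 267 CPM at NC14 (-0.12 ± 0.24, adjusted p = 0.738), and its sign turned with DESeq2 size factors (0.05). The methyltransferase gene Su(var)3-9 had 102 and 62.8 CPM, against 130 CPM in both NC14 libraries (-0.66, adjusted p = 0.0672). The white gene (w) was low throughout, with 3.79 and 1.61 CPM at St7-8, against 5.53 and 3.74 CPM at NC14 (-0.78, adjusted p = 0.223). Of the 14 genes of this list Chro, pzg and Su(var)2-HP2 fell (-0.72, -0.55 and -0.61), Chro and pzg encoding interband chromatin proteins and Su(var)2-HP2 an HP1 partner. None rose, and none was called without St7-8 replicate 2 or either NC14 library. Of 5 histone genes outside the replication-dependent cluster, His2Av fell by 0.41, a call absent with DESeq2 size factors and without St7-8 replicate 2 or either NC14 library.

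None of 91 cytosolic ribosomal protein genes passed (3 had an unadjusted p under 0.05, DESeq2 called 1 and limma-voom none), and their median of -0.19 was -0.03 with DESeq2 size factors. Of 71 mitochondrial ribosomal protein genes 5 rose (7.04%, beside 12.1% of all genes) and 3 fell, and with DESeq2 size factors 6 rose and none fell. Of 41 proteasome genes 6 rose (14.6%, beside 12.1% of all genes), among them the lid subunits Rpn7, Rpn8, Rpn9 and Rpn11 (0.63 to 1.28), and Prosalpha6 fell (-0.59), and with DESeq2 size factors 11 rose. Without St7-8 replicate 1 the mitochondrial set had 6 higher and 1 lower and the proteasome 8 higher and 2 lower, without St7-8 replicate 2 the only call was 1 higher proteasome gene, and without either NC14 library neither set had a call. Of 6 Halloween genes of ecdysone synthesis phtm and sad fell (-1.02 and -1.23) and neither was called with DESeq2 size factors or without St7-8 replicate 2 or either NC14 library, while 5 fell without St7-8 replicate 1. By gene class, 12 of 1060 ncRNA genes rose and 65 fell (6.13%), against 1473 and 1103 (10.2%) of 10834 protein-coding genes. On chromosome 4, 22 of 103 genes fell (21.4%) and 6 rose, with a median of -0.30, whereas on the larger arms 9.18 to 10.2% fell. This was not tested as a difference between chromosomes.

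The stage change of Su113 was set against that of the control wm4h by the difference of the 2 log2 fold changes. The control had no gene past the test (edgeR, 1395 at an unadjusted p under 0.05; limma-voom 0, DESeq2 462), which does not show that its stages are alike. One control library stood apart: wm4h St7-8 replicate 2 had stage 5 markers at 4750 CPM and replicate 1 at 1558 CPM, against 3324 and 4338 CPM in wm4h NC14 libraries. In 11 genes (0.0887%) the change in Su113 exceeded that in wm4h, and in none was it smaller (2204 genes had an unadjusted p under 0.05, and DESeq2 called 622 greater and 190 smaller). The 11 were GstD1, D19A, CG3902, exu, Gapdh2, Cyp6a19, wkd, dhd, CG14931, CG4842 and 1 with no symbol in the annotation, and all 11 also differed from Su140 and from Su(var)3-9. GstD1, a glutathione transferase (chromosome 3R, 12367817 to 12369268, dm6), had 112 and 196 CPM at St7-8 and 3.80 and 4.51 CPM at NC14 in Su113, against 7.77 and 6.75 CPM at St7-8 and 7.21 and 4.74 CPM at NC14 in wm4h (difference 4.92 ± 0.46, adjusted p = 0.00255). For exu the wm4h libraries held 9.48 and 13.2 CPM at St7-8 and 11.3 and 10.3 CPM at NC14, so that only the Su113 St7-8 libraries were high (difference 3.48 ± 0.45, adjusted p = 0.0190). Cyp6a19, a cytochrome P450 gene, had 32.9 and 77.4 CPM at St7-8 and 0.710 and 0.968 CPM at NC14 in Su113, against 0.780 to 1.70 CPM in the 4 wm4h libraries. The 11 became 653 without Su113 St7-8 replicate 1, 7 without Su113 St7-8 replicate 2, none without Su113 NC14 replicate 1 and 2 without Su113 NC14 replicate 2. Leaving out wm4h libraries gave 3 without St7-8 replicate 1, none without St7-8 replicate 2, 2 without NC14 replicate 1 and 53 without NC14 replicate 2.

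**Figure D5:**
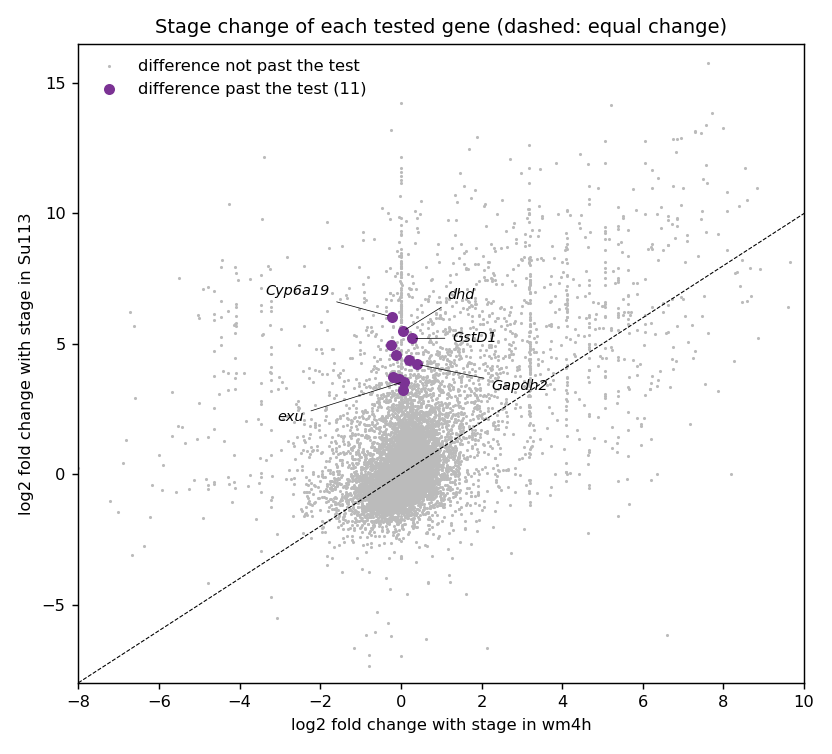
Each point is 1 of the 12398 genes tested, with its log2 fold change with stage in wm4h on the x axis and in Su113 on the y axis. The 11 genes whose stage change differed past the test (purple) lie near 0 for wm4h, between -0.24 and 0.40, and between 3.22 and 6.04 for Su113.

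Against the other mutants the difference was broader. It passed the test in 848 genes against Su140 (6.84%; 405 or 3.27% greater and 443 or 3.57% smaller in Su113) and in 785 genes against Su(var)3-9 (6.33%; 579 or 4.67% greater and 206 or 1.66% smaller). These comparisons share the Su113 libraries and so are not independent of each other. The 848 became 2244 without Su113 St7-8 replicate 1, 56 without St7-8 replicate 2 and 3 without either NC14 library of Su113, and 25 to 298 without any 1 library of Su140. The 785 became 1911, 375, 49 and 132 when the same Su113 libraries were left out, in that order. Without Su(var)3-9 St7-8 replicate 2 they became 103 and without its NC14 replicate 1 they became 157. Fitted on the 8 libraries of Su113 and Su140 alone, the first comparison had no gene past the test (edgeR, 3238 at an unadjusted p under 0.05). Su140 itself changed in 4165 genes (33.6%; 17.6% higher) and Su(var)3-9 in 2835 (22.9%; 10.0% higher and 12.8% lower). Of the genes that rose in Su113, 44.9% also rose in Su140 and 27.7% in Su(var)3-9, which are 30.9% of the risers of Su140 and 33.4% of those of Su(var)3-9. Of the genes that fell in Su113, 41.5% fell in Su140 and 37.9% in Su(var)3-9, which are 25.1% and 28.5% of their fallers. Opposite calls were made for 70 genes with Su140 and 109 with Su(var)3-9.

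Several of the lists that rose in Su113 had greater changes there than in the other mutants. Of the 10 egg activation genes, the change was greater in Su113 than in Su140 for 6 and than in Su(var)3-9 for 5, with a median of 1.58 in Su113, against -0.92 in Su140, -1.40 in Su(var)3-9 and 0.31 in wm4h. The corresponding counts were 7 and 7 of 13 germ plasm genes, 7 and 8 of 12 glycolysis genes and 4 and 4 of 11 heat shock genes. The change was smaller in Su113 for none of these. Over all genes the change was greater in 3.27% against Su140 and 4.67% against Su(var)3-9. Against wm4h it was greater in 1 germ plasm and 1 glycolysis gene, and in no egg activation or heat shock gene. Levels at NC14 also differed. Egg activation genes summed there to 534 and 561 CPM in Su113, 791 and 961 CPM in Su140, and 550.5 and 333.5 CPM in Su(var)3-9. At St7-8 the sums were 642 and 1168, 524 and 390, and 306 and 238.5 CPM, in that order. Glycolysis genes summed at NC14 to 819 and 812, 1219 and 1538, and 1358 and 812 CPM in the same order. Their St7-8 sums were 1223 and 2175, 785 and 794, and 639 and 581 CPM. For dhd, the difference was 5.99 ± 0.85 from Su140 (adjusted p = 0.0126) and 6.68 ± 0.86 from Su(var)3-9 (adjusted p = 0.00443). For mtrm it was 4.68 ± 0.98 (adjusted p = 0.0263) and 5.31 ± 1.0 (adjusted p = 0.0121), where its own log2 fold change was 3.83 in Su113, -0.85 for Su140 and -1.48 for Su(var)3-9. CG6638 had 8.06 and 13.4 CPM at St7-8 and 0.538 and 0.925 CPM at NC14 in Su113, against 7.99 and 5.06 CPM at St7-8 and 16.3 and 18.8 CPM at NC14 in Su140, so that it moved in opposite directions (difference 5.30 ± 0.53, adjusted p = 0.00210). For Tpi the difference from Su(var)3-9 was 5.33 ± 0.62 (adjusted p = 0.00440).

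Patterning genes of the extending germband had smaller changes in Su113 than in Su140. The change was smaller in Su113 for 7 of 8 Hox genes, 6 of 11 segment polarity genes and 7 of 11 genes of amnioserosa and dorsal ectoderm. It was also smaller for 5 of 8 of the mesectoderm and EGF list and 4 of 5 of the neurectoderm and Sox list. It was greater for none of these. Over all genes the change was smaller than in Su140 in 3.57%. The Hox median was 0.52 in Su113, against 3.08 in Su140, 1.75 in Su(var)3-9 and 0.88 in wm4h, and no Hox gene differed from wm4h or Su(var)3-9 past the test. Hox RNA summed to 199 and 91.9 CPM at St7-8 and 117 and 124 CPM at NC14 in Su113. In Su140 the sums were 433 and 404.5 CPM at St7-8 and 55.2 and 48.0 CPM at NC14, so the genotypes differed at both stages. Fitted on the libraries of Su113 and Su140 alone, no gene of these or the other lists differed past the test. The gene nolo had 10.5 and 9.03 CPM at St7-8 and 8.21 and 8.88 CPM at NC14 in Su113, against 7.57 and 12.9 CPM at St7-8 and 1.01 and 1.46 CPM at NC14 in Su140. lncRNA:iab4, of the bithorax region, fell in Su113 and rose in Su140 (39.9 and 26.7 CPM at St7-8 and 101 and 92.3 CPM at NC14 in Su113, against 74.7 and 76.1 CPM at St7-8 and 44.9 and 34.3 CPM at NC14 in Su140, difference -2.46 ± 0.33, adjusted p = 0.0126). Sxl fell in Su113, and its change in Su140 did not pass (-0.14, edgeR adjusted p = 0.577). The difference was -1.22 ± 0.27 (adjusted p = 0.0301).

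Some cellularization genes fell less in Su113 than in Su(var)3-9. The gene slam fell by 1.84 on the log2 scale in Su113 and by 6.50 in Su(var)3-9 (difference 4.66 ± 0.63, adjusted p = 0.00498), and Elba1 had log2 fold changes of -1.92 in Su113 and -5.16 in Su(var)3-9 (difference 3.25 ± 0.59, adjusted p = 0.0107). The stage 5 markers summed to 2076 and 1178 CPM in Su113 St7-8 libraries, against 68.3 and 71.5 CPM in those of Su(var)3-9. In 3 of 9 cellularization genes and 1 of 8 gap genes the fall was smaller in Su113, and in none of these was it larger. Over all genes the difference from Su(var)3-9 was positive past the test in 4.67%. SC35, a splicing factor gene, had 104 and 73.4 CPM at St7-8 and 131 and 130 CPM at NC14 in Su113, against 326 and 318 CPM at St7-8 and 140 and 163 CPM at NC14 in Su(var)3-9 (difference -1.65 ± 0.26, adjusted p = 0.00658). The stage change of slam did not differ past the test between Su113 and Su140 (-0.84 ± 0.60, adjusted p = 0.452) or wm4h (-1.56 ± 0.60, adjusted p = 0.226), which does not show that it was alike.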

How the data were processed

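RNA-seq libraries of 8 groups of 2 were analysed from the gene-level count table that the authors deposited, whose whole-number values were not normalized. The submitters' processing notes name DESeq2 and dm6. The aligner, the counter and its strand setting are not given in the sources used here, so reads of overlapping and antisense genes cannot be told apart. Of 17753 gene IDs, 17626 matched Ensembl release 115, which gave symbols and dm6 coordinates, and the 127 others held 1.06% of counts. No libraries had identical counts. After edgeR's default expression filter 12398 genes were tested. A quasi-likelihood model (edgeR 4.0.16, R 4.3.3) used TMM scaling and 1 mean for each of 8 groups over the 16 libraries, leaving 8 residual degrees of freedom and a common biological coefficient of variation of 0.401. The tests were 2-sided, the Benjamini-Hochberg threshold was 0.05, and the 7 contrasts were adjusted separately. Each SE was worked back from the test, as the absolute log2 fold change divided by the square root of the F statistic. Alternatives were DESeq2 1.42.0, its size factors, limma-voom (limma 3.58.1), other filters, fewer genotypes, a replicate block and leaving out each library.

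The members, gene lists and tests were chosen with earlier results of these data known. Genes were named by rank. The rule took the 12 highest and 12 lowest fold changes among called, symbol-bearing protein-coding genes with a mean of 5 CPM or more and no overlap between stages. It added the 6 greatest gains and losses of level, up to 4 called genes per list by adjusted p, the 5 smallest adjusted p in each direction of each difference, and Jasper, Su(var)3-9, JIL-1 and w. Other list members named, the 6 genes called without any 1 library and the remaining genes of the difference from wm4h were singled out after their values were seen. Med, Nplp2, esg, 18w, betaTub60D and nvd were not analysed here.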

Additional observations from a re-analysis of the deposited data

Results flagged for a closer look

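The stage change of Su113 differed from that of each other genotype by a test of the difference itself (edgeR quasi-likelihood test, adjusted over 12398 genes), in 11 genes against wm4h, 848 against Su140 and 785 against Su(var)3-9. The values that follow are differences of log2 fold changes, Su113 minus the other genotype. Against wm4h they were 4.92 for GstD1, 4.16 for D19A, 4.68 for CG3902, 3.48 for exu and 3.81 for Gapdh2. Against Su140 the greater changes were 4.99 for GstD1, 5.30 for CG6638, 4.50 for exu, 4.32 for Gapdh2 and 4.43 for CG14931. The smaller ones were -2.46 for lncRNA:iab4, -3.75 for tbc, -2.36 for lncRNA:CR45940, -2.85 for nolo and -2.33 for Kank. Against Su(var)3-9 the greater changes were 6.01 for GstD1, 4.51 for exu, 4.96 for Gapdh2, 5.24 for CG3902 and 5.33 for Tpi. The smaller ones were -1.14 for Dyrk3, -3.83 for mth, -1.17 for Pex19, -1.65 for SC35 and -2.03 for FBgn0001981, which has no symbol in the annotation. GstD1, exu and Gapdh2 stood in all 3 sets, which share the Su113 libraries.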

How the results depend on the processing

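The 2699 calls of the Su113 stage change stayed within 1.5 times under DESeq2, its size factors, limma-voom, both filters and the replicate block (1933), became 440 with Su113 libraries alone, and ranged from 6 to 3469 when 1 library was left out. Of the 440, 413 were higher and 27 lower, and in that fit 93 of 124 named genes lost their call. The replicate differences of the stages were not correlated in Su113 (r = -0.0073). That value cannot show whether libraries with the same replicate number were collected or prepared together. The replicate block made the difference from wm4h 4 and that from Su140 525 genes. The stage change in wm4h (0 genes) was 462 with DESeq2 and 0 to 186 with 1 library left out, that in Su140 637 to 3455 and that in Su(var)3-9 648 to 2315. The difference from wm4h (11 genes) was 25 with DESeq2 size factors, 812 with DESeq2, 2 with limma-voom, 39 with no filter, 66 with a filter at 1 CPM and 0 to 653 with 1 library left out. The difference from Su140 (848) was 2163 with DESeq2, 0 with only the genotypes compared and 3 to 2244 with 1 library left out. That from Su(var)3-9 (785; 579 greater, 206 smaller) was 2178 with DESeq2, 49 to 1911 with 1 library left out, and 784 greater and 166 smaller with DESeq2 size factors. For JIL-1 (-0.12) the log2 fold change turned to 0.051 with DESeq2 size factors and with DESeq2, 0.072 with a filter at 1 CPM and 0.010 with only the genotypes compared, and ran from -0.126 to 0.041 with 1 library left out. The cause of these shifts was not tested. With 1 library left, a group is assumed to vary like the others. Groups of 2 pools and the shallow St7-8 replicate 2 limit low-count genes most.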
